A study of Mus musculus with 20 samples.

Results

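The genes described here are 10 genes known for their part in spermatogonial stem and progenitor cells of the mouse: Zbtb16, Sall4, Gfra1, Ret, Id4, Etv5, Nanos3, Lin28a, Foxo1 and Uchl1. A probe set, the group of short probes that reads 1 transcript on the array, was taken for a gene when the platform annotation gave that gene alone. By this rule 23 of the 45037 probe sets in the table were members, and they stood for 9 of the 10 genes, among 18193 genes named in the annotation. Nanos3 had no probe set of its own and was not analysed here. RNA came from testes of male F1 mice of the cross C57BL/6 x DBA/2J, 10 to 16 weeks of age, whose cells were stained with the DNA dye Hoechst 33342 and sorted by flow cytometry. The 20 arrays held, in stage order, 4 samples of spermatogonia (Sp), 3 of pre-leptotene (pL), 3 of leptotene/zygotene (L/Z), 1 of early-pachytene (eP), 2 of mid-pachytene (mP), 1 of late-pachytene (lP) and 2 of diplotene cells (D), and 4 of round spermatids (RS). No mouse was mutated or treated, each array held a pool of sorts, and the labels call the arrays of a fraction biological replicates. A fraction is a gate on the fluorescence of the dye, so it is an enriched population and not a pure cell type. Fewer cells of a type in it and less RNA per cell cannot be told apart in these bulk samples.

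Spermatogenesis in the adult is fed by a small pool of stem cells within the undifferentiated spermatogonia. Sertoli cells secrete GDNF, which binds the co-receptor GFRA1 and signals through the tyrosine kinase RET, and this signal maintains the pool and keeps genes such as Etv5 and Id4 active. Retinoic acid then turns the progenitors into KIT-positive differentiating spermatogonia, which induce Stra8, divide several more times and enter meiosis. The genes above are used as markers of the pool, and some of them, such as Sall4 and Uchl1, are also read in later spermatogonia.

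Signals were on a linear scale and are given here as log2 values. A log2 value of 5 was taken as the lower limit for a reliable signal, and a probe set was tested when at least 2 of the 20 arrays reached it. Of the 23 probe sets 16 passed, and they included the probe set with the highest mean of each of the 9 genes, which stands for the gene below. The other 7 were second probe sets of Etv5, Gfra1, Ret, Lin28a and Foxo1. A change between fractions was called when its p from limma, adjusted by Benjamini-Hochberg over 22396 probe sets, was under 0.05. Levels of different genes rest on different probes and are not set against each other.

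Over all probe sets the arrays were alike in range, with median signals of 11.1 to 12.7 and 34.6 to 39.8% of probe sets at a log2 value of 5 or more. Transcripts known from other cells were read on the Sp arrays. The summed signal of 12 macrophage genes had a log2 value of 6.81 to 11.4 on pL arrays and 6.98 to 7.95 on L/Z arrays, against 10.4 to 12.6 on Sp arrays. Among these genes Lyz2, the lysozyme of myeloid cells, reached 10.28 on Sp array 4 and 7.79 to 9.13 on the other Sp arrays. The summed signal of 10 spermatid genes was at most 15.6 on pL and on L/Z arrays, against 15.7 to 17.9 on Sp arrays. On the RS arrays themselves it was 16.6 to 17.1, within the range of the Sp arrays. The summed signal of 14 Sertoli genes was 12.6 to 13.2 on Sp arrays and 12.5 to 13.5 on pL arrays. It was highest on L/Z arrays, at 13.3 to 13.9, and was 13.6 in eP and 12.7 and 13.3 in mP. Later it was 10.6 in lP, 11.2 and 12.9 in D and 9.74 to 13.1 in RS. Of the 8 that were tested 2 were lower in lP and D against Sp, Vim (-2.60) and Ctsl (-2.59), while the defining Sox9, Amh and Fshr stayed under 5 on every array. Of the peritubular myoid genes 4 were tested and 4 were lower in lP and D against Sp (median -2.24), whereas 0 of 3 Leydig and 0 of 2 endothelial genes were called there. In that comparison 38.2% of all genes were lower and 31.2% higher, and each of these counts, that of the Sertoli genes included, rests on few genes. The part of these other cells in the results below was not tested.

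Zbtb16 (probe set 1439163_at) encodes PLZF, a transcriptional repressor needed for self-renewal of spermatogonial stem cells. Its log2 signal was 9.95, 8.28, 8.57 and 10.55 in Sp, 10.68, 8.74 and 9.84 in pL, and 10.66, 10.21 and 9.85 in L/Z. It was 7.94 in eP, 9.83 and 9.43 in mP and 6.40 in lP. In D it was 4.38 and 3.52, and in RS it was 5.60, 2.51, 2.80 and 2.52. The arrays up to mP overlapped with the exception of the single eP array, which lay below them. From lP on every array was lower than every earlier one, and 5 of the 6 D and RS arrays were under 5.

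Sall4 (1424152_at) encodes a zinc-finger factor that binds PLZF and is needed for differentiation. Its log2 signal ran from 9.46 to 11.62 in Sp, 10.28 to 10.82 in pL and 10.55 to 11.07 in L/Z, and was 9.33 in eP and 10.33 and 9.42 in mP. It stood at 6.87 in lP, 5.99 and 4.72 in D, and 6.79, 4.14, 4.07 and 2.81 in RS. The lP array and RS array 1 were the highest of the late arrays, and both were more than 2 log2 units below the lowest earlier array.

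Foxo1 (1416981_at) encodes a forkhead factor that PI3K signalling moves out of the nucleus and that stem cell maintenance requires. The log2 signal was 9.26, 8.43, 9.26 and 10.08 in Sp, 10.03, 9.36 and 9.58 in pL, and 9.97, 10.20 and 9.64 in L/Z. It was 8.58 in eP, 9.20 and 8.51 in mP, and 6.08 in lP. In D it was 4.83 and 4.09, and in RS it was 5.29, 3.09, 3.14 and 3.16. All arrays up to mP lay between 8.43 and 10.20, and all later arrays lay below that range.

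Lin28a (1437752_at), whose product blocks maturation of let-7 microRNAs, varied among Sp and pL arrays. Sp arrays gave 9.96, 8.06, 7.93 and 11.08, pL arrays 10.69, 8.66 and 9.71, and L/Z arrays 10.69, 10.54 and 10.61. The signal was 8.27 in eP, 10.26 and 9.52 in mP, 6.97 in lP, 5.48 and 3.69 in D, and 5.42, 3.53, 4.73 and 3.88 in RS. The 3 L/Z arrays were nearly equal (SD 0.08), whereas the 4 Sp arrays had an SD of 1.53 and reached both above and below them.

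Uchl1 (1448260_at) encodes a ubiquitin hydrolase, also called PGP9.5, that marks spermatogonia in sections. Its signal was 12.05, 12.01, 12.40 and 13.19 in Sp, 12.32, 12.54 and 12.86 in pL, and 12.74, 12.78 and 13.05 in L/Z. It was 12.26 in eP and 12.08 and 11.67 in mP. In lP it was 9.29, in D 8.14 and 6.94, and in RS 7.20, 6.14, 6.42 and 3.78. It stayed over 5 in lP, in D and in 3 of the 4 RS arrays. As a share of its Sp level (means of log2 values, taken back to the linear scale) 68.8% was left in mP, 11.5% in lP, 3.41% in D and 1.08% in RS.

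**Figure D1:**
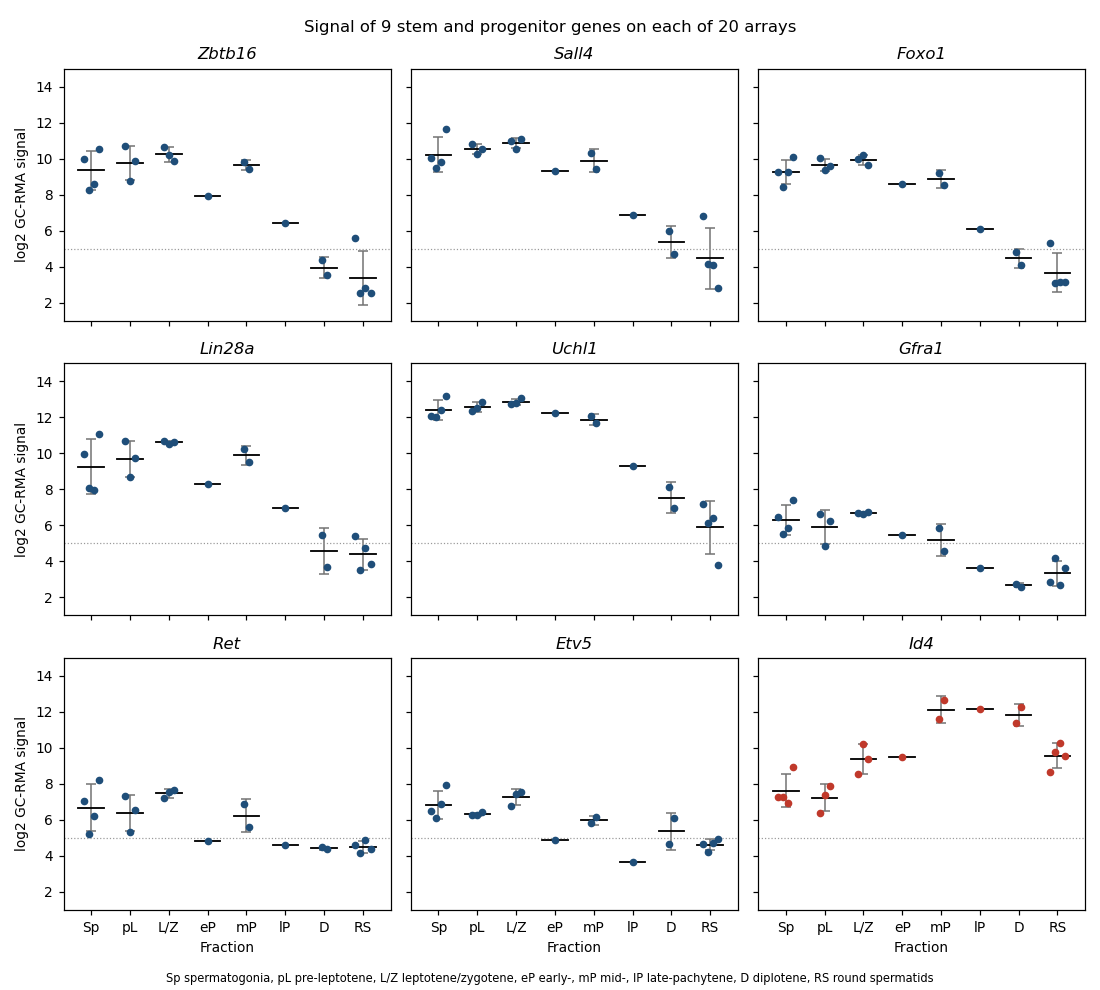
Log2 signal of each of the 9 genes (1 panel each, main probe set) by fraction, from spermatogonia to round spermatids. Points are arrays, short horizontal lines are fraction means, and bars are the SD where a fraction has more than 1 array. The dotted line is a log2 value of 5. In 7 panels every point from late-pachytene on lies below every point before pachynema, in the Etv5 panel a diplotene point reaches the early ones, and the Id4 panel runs the other way.

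The GDNF receptor pair and Etv5 gave signals not far above 5. Gfra1 (1439015_at) had a log2 signal of 6.47, 5.51, 5.85 and 7.38 in Sp, 6.64, 4.86 and 6.26 in pL, and 6.66, 6.62 and 6.71 in L/Z. It was 5.46 in eP, 5.83 and 4.58 in mP and 3.60 in lP. It stayed under 5 in D (2.74 and 2.58) and in RS (2.85, 4.16, 2.68 and 3.61). The L/Z arrays were as high as the Sp arrays, and from lP on no array reached the limit of 5.

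Ret (1436359_at), the kinase of the pair, gave 7.07, 5.19, 6.23 and 8.24 in Sp, 7.30, 5.32 and 6.56 in pL and 7.20, 7.57 and 7.68 in L/Z. In eP it was 4.86, in mP 6.89 and 5.59, and in the 7 arrays from lP on 4.16 to 4.88 with a median of 4.49. Etv5 (1428142_at), an ETS factor induced by GDNF, gave 6.47, 6.10, 6.87 and 7.92 in Sp, 6.27, 6.27 and 6.42 in pL, and 6.78, 7.47 and 7.56 in L/Z. Both genes were lowest or near their lowest level in lP, D and RS, with 1 exception. Etv5 was 4.90 in eP, 5.80 and 6.15 in mP and 3.68 in lP, but 4.66 and 6.10 in D, where the second array was level with the lowest Sp array. In RS it was 4.65, 4.21, 4.72 and 4.91, all under 5.

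Id4 (1423259_at) was the exception. It encodes an inhibitor of basic helix-loop-helix factors, and an Id4 reporter marks cells with the highest stem cell activity in mouse testis. The log2 signal was 7.29, 7.29, 6.95 and 8.96 in Sp and 6.41, 7.38 and 7.90 in pL, with overlapping arrays. It was 8.56, 10.20 and 9.37 in L/Z, 9.51 in eP and 11.60 and 12.65 in mP. It was 12.18 in lP and 11.41 and 12.26 in D, and 8.67, 9.80, 10.27 and 9.57 in RS. The 5 arrays of mP, lP and D were above all 15 others, and the mP mean was 2270% of the Sp mean. Both other Id4 probe sets ran the same way, with a change in lP and D against Sp of 4.98 and 5.27 on the log2 scale, against 4.38 for the main one.

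**Figure D2:**
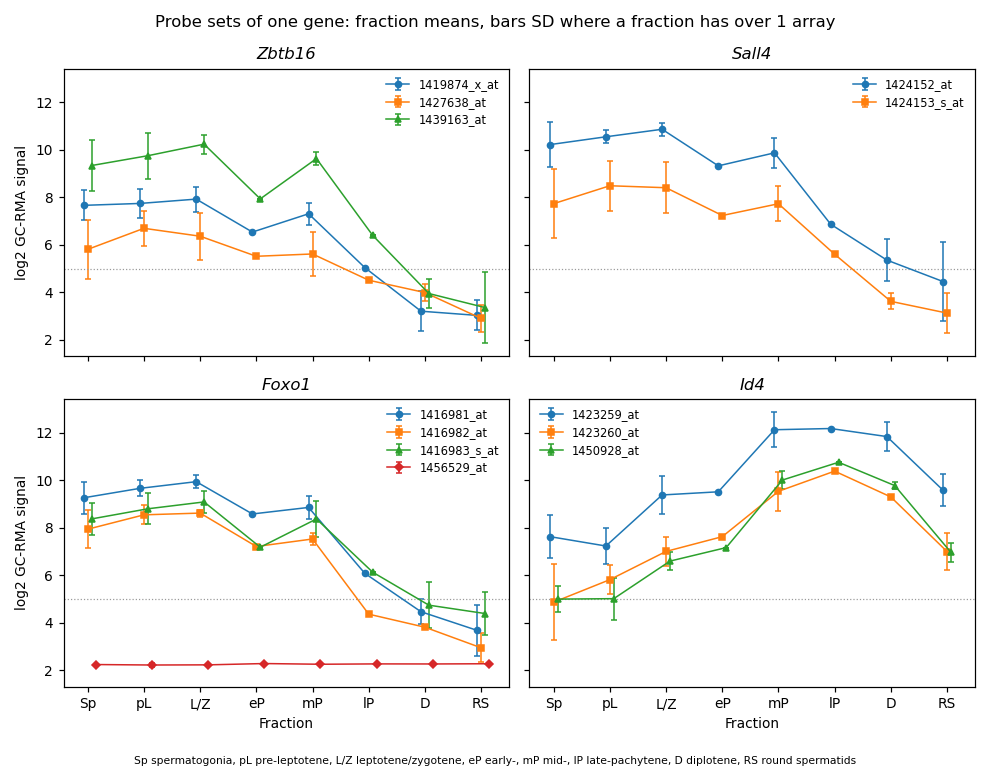
Fraction means of the log2 signal for each probe set of Zbtb16, Sall4, Foxo1 and Id4 that is annotated with 1 gene, from spermatogonia to round spermatids, with bars for the SD where a fraction has more than 1 array and a dotted line at 5. The 3 Id4 probe sets are highest in mid-pachytene to diplotene cells, while the probe sets of the other 3 genes that start above 5 fall after mid-pachytene.

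The other probe sets of Zbtb16, Sall4 and Foxo1 that passed the filter gave smaller changes at lower signals. Beside -4.17 for its main probe set in lP and D against Sp, Zbtb16 had -3.54 and -1.56 on the log2 scale. Sall4 had -3.12 beside -4.11, and Foxo1 had -3.85 and -2.94 beside -3.99. All of these were called by limma, with the highest Benjamini-Hochberg adjusted p at 0.043 for the weakest Zbtb16 probe set (1427638_at). A further Foxo1 probe set, 1456529_at, did not pass the filter and never reached a log2 value of 5. The same held for the other probe sets of Gfra1, Etv5, Ret and Lin28a, so the falls of these genes rest on the main probe set alone. Among them Etv5 1420998_at had a higher mean in RS (3.99) than in Sp (2.74), both under 5. Uchl1 had no other probe set.

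To show the sequence that lies before the genes that part ways, 3 of the promoters held by the RefSeq table of build GRCm38.p6 are printed, each as the 250 bases before the annotated start. The table matched 7 of the 10 genes, and Zbtb16, Sall4 and Ret are named only. Capitals mark matches, on either strand, to CCAAT, to GGGCGG (the GC box) and to AACNGNC (a core read by MYB factors). Id4 is shown as the gene that rose, Foxo1 and Uchl1 as genes that fell.

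Id4, chr13:48260866-48261115, plus strand: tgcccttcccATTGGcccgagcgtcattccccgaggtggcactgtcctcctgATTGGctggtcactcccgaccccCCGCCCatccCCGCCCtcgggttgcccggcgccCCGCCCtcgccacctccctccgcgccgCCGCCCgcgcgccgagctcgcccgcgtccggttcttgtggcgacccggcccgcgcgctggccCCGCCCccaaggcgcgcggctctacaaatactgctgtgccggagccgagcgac

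Foxo1, chr3:52268087-52268336, plus strand: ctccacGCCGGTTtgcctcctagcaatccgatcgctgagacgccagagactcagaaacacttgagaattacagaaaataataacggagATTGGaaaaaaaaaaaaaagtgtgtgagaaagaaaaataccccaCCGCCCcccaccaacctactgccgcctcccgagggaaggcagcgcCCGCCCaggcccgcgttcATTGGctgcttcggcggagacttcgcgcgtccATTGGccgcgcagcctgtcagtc

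Uchl1, chr5:66675871-66676120, plus strand: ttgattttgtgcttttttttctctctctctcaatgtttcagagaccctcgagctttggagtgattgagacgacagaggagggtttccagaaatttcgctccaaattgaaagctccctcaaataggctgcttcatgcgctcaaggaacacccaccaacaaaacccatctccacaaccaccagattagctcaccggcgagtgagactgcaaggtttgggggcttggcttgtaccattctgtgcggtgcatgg

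The Id4 window held 2 CCAAT matches, 5 GC boxes and 0 MYB matches at 75.6% G and C. That of Foxo1 held 3 CCAAT matches, 2 GC boxes and 1 MYB match at 56.0%, and that of Uchl1 held none of the 3 motifs at 48.8%. Other genes that fell have windows not printed here. One window of Etv5 held 3 CCAAT matches, 3 GC boxes and 1 MYB match at 71.2%. The other Etv5 window held 0 GC boxes at 62.0%, as did those of Gfra1 at 52.4% and Lin28a at 61.2%. Among all 32851 promoters of this length 33.8% held CCAAT, 32.7% GGGCGG and 27.7% AACNGNC, and the median content of G and C was 52.4%. In the printed windows no match overlapped a match to another motif, and a match is only a description of its window.

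Whether the genes change between the spermatogonia gate and the first meiotic fractions was asked first. In pL against Sp, 0 of the 9 genes were called, where 0.686% of all 11952 genes were called in either direction, and the lowest Benjamini-Hochberg adjusted p of limma among the 9 was 0.834. The changes were above 0 for 5 genes and below 0 for 4, with a median of 0.16 on the log2 scale against -0.01 for all genes. For Zbtb16 the 95% interval of the change was -1.10 to 1.93. In L/Z against Sp, 0 of 9 were called as well (1.94% of all genes were called), although all 9 changes were above 0, with a median of 0.68 against 0.04 for all genes. The largest were Id4, with 1.75 (adjusted p = 0.115), and Lin28a, with 1.35 (adjusted p = 0.444), both from limma.

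In mP against Sp, 0 of the 9 genes fell past the threshold (22.9% of all genes were lower) and 1 rose (21.2% of all genes were higher). The 1 was Id4, with 4.50 ± 0.62 (SE) on the log2 scale (limma, adjusted p = 4.41e-05). Zbtb16 had a change of 0.29, with a 95% interval from -1.43 to 2.01, and Sall4 had -0.35, from -2.05 to 1.36. Gfra1 had -1.10 (adjusted p = 0.135) and Etv5 -0.87 (adjusted p = 0.143), both from limma. With 2 mP arrays these intervals held both an unchanged level and a fall of more than 1 log2 unit. No array project, as numbered in the study's dataset, held both an mP and an Sp array, so this comparison was made across projects. With the project as a fixed block, Foxo1 was called lower, with -1.47 (limma, adjusted p = 0.0486) in place of -0.41. The changes of Zbtb16 and Lin28a turned from above to below 0 with this block and were not called.

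The step from L/Z to mP spans the entry into pachynema. In mP against L/Z, Id4 rose by 2.75 ± 0.65 on the log2 scale (limma, adjusted p = 0.00591), as 1 of the 9 genes called, where 16.2% of all genes were higher. The other 8 genes were all below 0 with none called, where 17.1% of all genes were lower. The closest were Etv5, with -1.30 (adjusted p = 0.0538), and Gfra1, with -1.46 (adjusted p = 0.0775), by limma. The median over the 9 was -0.99, against -0.11 for all genes. With the array project as a fixed block, Foxo1 (-1.85, adjusted p = 0.0119) and Etv5 (-1.21, adjusted p = 0.0497) were called lower as well by limma, and so were both with values under 5 raised to 5. The count also depended on single arrays: without mP array 2 no gene was called, and without mP array 1 or without L/Z array 1 the count was 2.

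The step after mP was compared as an addition, after the values had been seen. In the mean of lP and D against mP, 6 of the 9 genes fell, where 13.2% of all genes were lower, and 0 rose, where 6.38% were higher. Zbtb16 fell by 4.46, Lin28a by 4.11, Sall4 by 3.76, Foxo1 by 3.58, Uchl1 by 3.46 and Gfra1 by 2.07 on the log2 scale, with Benjamini-Hochberg adjusted p of limma between 0.00103 for Foxo1 and 0.0291 for Gfra1. Etv5 (-1.45, adjusted p = 0.0544), Ret (-1.73, adjusted p = 0.11) and Id4 (-0.12, adjusted p = 0.946) were not called by limma. The median was -3.46, against -0.03 for all genes. Because D means of Zbtb16, Foxo1, Lin28a and Gfra1 were under 5, the falls were also taken with such values raised to 5. They were then 3.93 for Zbtb16, 3.78 for Lin28a, 3.69 for Sall4, 3.31 for Foxo1 and 3.46 for Uchl1, and Gfra1, with -0.41, was no longer called (limma, adjusted p = 0.709). Only 3 genes were called without mP array 1 (Zbtb16, Foxo1 and Uchl1), and 0 when the fit held these fractions alone (3 arrays against 2), where the lowest adjusted p of limma was 0.0666.

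Against Sp all 9 genes were called in the late fractions. In the mean of lP and D, 8 of the 9 genes fell (38.2% of all genes were lower) and Id4 rose (31.2% were higher). Foxo1 fell by 3.99 ± 0.51 (limma, adjusted p = 4.71e-06), Uchl1 by 4.00 ± 0.61 (2.67e-05), Gfra1 by 3.17 ± 0.52 (5.67e-05) and Zbtb16 by 4.17 ± 0.74 (0.000127). Sall4 fell by 4.11, Lin28a by 3.48, Etv5 by 2.31 and Ret by 2.17, the last with the highest adjusted p of limma, 0.0048. Id4 rose by 4.38 ± 0.56 (limma, adjusted p = 5.02e-06). The median of the 9 genes was -3.48, against -0.24 for all genes. Since several late values were under 5, the falls were recomputed with such values raised to 5: they were then 1.57 for Etv5, 1.30 for Gfra1, 1.68 for Ret, and 3.15 to 4.04 for the other 5, with all 9 genes still called. All 9 were also called with any 1 of the Sp or D arrays left out.

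**Figure D3:**
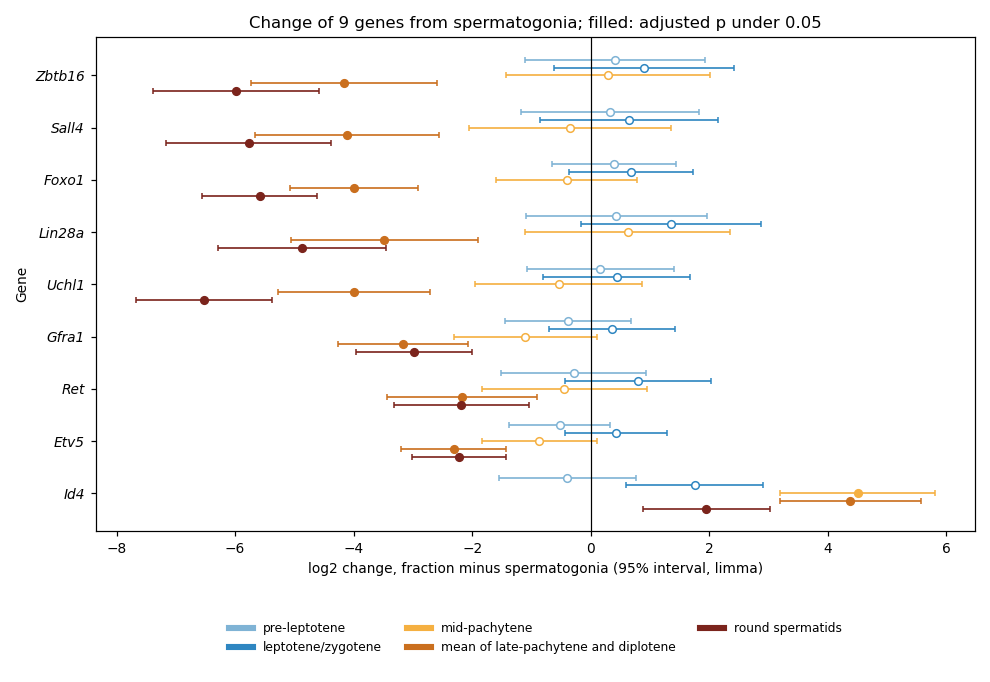
Log2 change against spermatogonia for each of the 9 genes in pre-leptotene, leptotene/zygotene, mid-pachytene, the mean of late-pachytene and diplotene, and round spermatid samples, with 95% intervals; filled points have an adjusted p under 0.05. Open points lie around 0 up to mid-pachytene except for Id4, and all 9 points of the later fractions are filled.

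In RS against Sp, 8 genes fell (42.4% of all genes were lower) and 1 rose (35.9% were higher). Uchl1 fell by 6.53, Zbtb16 by 5.98, Sall4 by 5.77, Foxo1 by 5.59 and Lin28a by 4.87 on the log2 scale, with adjusted p of limma of 5.97e-06 or lower. Gfra1, Etv5 and Ret fell by 2.98, 2.22 and 2.18. The RS means of all of these but Uchl1 were under 5, where differences are not reliable. With values under 5 raised to 5 the falls were 6.22 for Uchl1, 4.77 for Sall4, 4.19 for Zbtb16, 4.19 for Foxo1, 4.15 for Lin28a, 1.84 for Etv5, 1.68 for Ret and 1.30 for Gfra1. Id4 was still higher, by 1.95 (limma, adjusted p = 0.00244). In RS against D only Id4 was called, and it fell by 2.26 (limma, adjusted p = 0.0135). That was 1 of 9 genes lower, where 14.2% of all genes were lower, and 0 higher, where 13.5% were higher. Uchl1 had -1.65 (limma, adjusted p = 0.0821) and the other 7 genes had fraction means of at most 5.38 in both. Without D array 2 the call of Id4 was lost, and without RS array 1 the count was 3.

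Read array by array, 7 of the 9 genes had all 7 arrays from lP on below all 10 arrays before pachynema, a pattern that 28.6% of all genes showed. The 2 that did not were Etv5, through 1 D array, and Id4. The late arrays of Zbtb16, Sall4, Foxo1, Gfra1, Lin28a and Uchl1 also lay below the 3 eP and mP arrays, and those of Ret overlapped them. The share of all genes with this second pattern was not counted, so it is only a description. Among the fractions ordered by mean, L/Z was the highest for 8 of the 9 genes. Of the 7 neighbouring pairs in such an order, 4 overlapped in their arrays for Zbtb16, Sall4, Lin28a and Uchl1, 5 for Etv5, Foxo1 and Ret, and 6 for Gfra1 and Id4. No such pair among Sp, pL and L/Z was apart for any of the 9 genes, but this covers neighbours in the order alone. For Etv5 all L/Z arrays lay above all pL arrays (lowest 6.78 against highest 6.42), and so they did for Id4 (8.56 against 7.90). The share of all genes with such patterns was not counted.

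The columns of the study's dataset carry a project number, and each array was placed by equal signals with them. The labels give no project, and what it stands for in the handling of the arrays is not known here. Deviations from the fraction means, over the probe sets tested, correlated by more than 0.1 in 21 of 21 pairs of arrays from 1 project (median 0.439). The spread among Sp arrays was shared by the genes. For the 8 genes without Id4 the mean log2 signal was 8.91, 7.88, 8.37 and 10.0 on the 4 Sp arrays. The 3 L/Z arrays did not differ in this way, with means of 9.46, 9.49 and 9.52. Sp array 4 was the highest Sp array for 9 of 9 genes, as it was for Lyz2, 1 of the 12 macrophage genes. Over all probe sets its median signal was also the highest, 12.1 against 11.1 to 11.5 on the other Sp arrays. The share of all genes highest on Sp array 4 was not counted, and a link with the macrophage genes was not tested. Over the 20 arrays the 28 pairwise Pearson correlations of the 8 genes ran from 0.72 to 0.99 with a median of 0.888, as a description of points that share arrays and fractions and so also carry the differences between fractions. The 8 correlations of Id4 with them ran from -0.52 to -0.33.

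**Figure D4:**
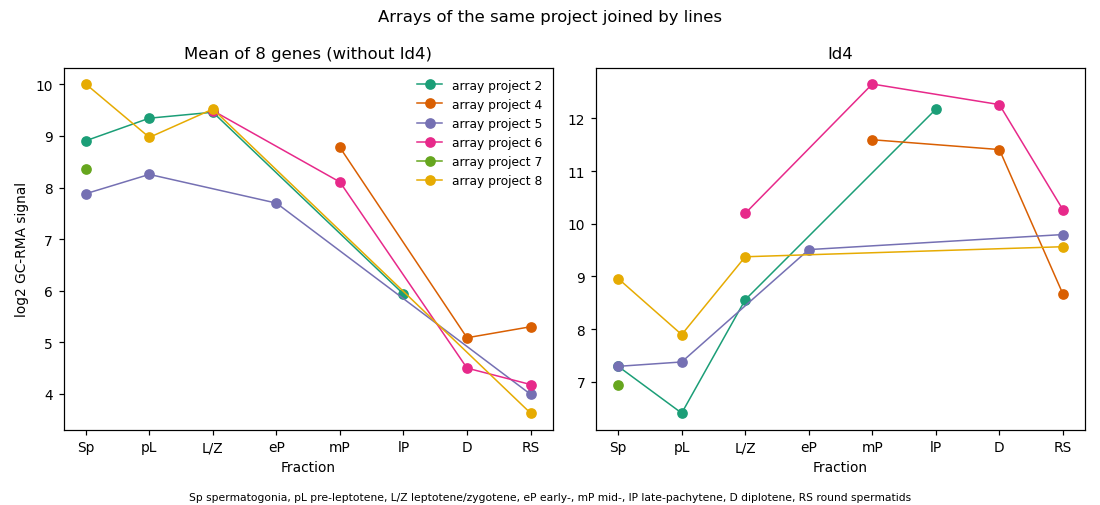
Mean log2 signal of the 8 genes other than Id4 (1 panel) and log2 signal of Id4 (the other panel) by fraction, 1 point per array, with lines that join arrays of the same project. Within every project that holds both, points from late-pachytene on lie below those up to mid-pachytene in the 8-gene panel, and Sp array 4 starts above all other spermatogonia arrays.

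Within projects the comparisons among early fractions changed sign. Each difference within a project is between single arrays. The share of all genes with the same sign was not counted, so the counts of members are only a description. For pL minus Sp, 7 of the 8 genes were above 0 in project 2 (median 0.50) and 7 in project 5 (median 0.49), but 8 of 8 were below 0 in project 8 (median -1.09), which holds Sp array 4. For L/Z minus Sp, 8 of 8 were above 0 in project 2 and 8 of 8 below 0 in project 8, with medians of 0.70 and -0.51. The single difference of mP minus L/Z, in project 6, was below 0 for 8 of 8 (median -1.22) and 2.46 for Id4. The eP array is of project 5, whose Sp and pL arrays had the lowest means of the 8 genes in their fractions (7.88 and 8.25). For eP minus Sp in that project 5 of the 8 genes were below 0 and 3 above (median -0.09). Zbtb16 had -0.35 there and Id4 2.22.

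Where a project held a fraction from lP on beside one up to mP, the 8 genes were below 0. Here too the share of all genes with the same sign was not counted. For lP minus Sp in project 2 all 8 were below 0, from -3.56 to -2.48, with Id4 at 4.88. For D minus mP all 8 were below 0 in project 4 (-5.46 to -1.15) and in project 6 (-5.91 to -0.05), with Id4 at -0.19 and -0.39. For RS minus Sp all 8 were below 0 in project 5 (-5.88 to -1.03) and project 8 (-9.41 to -3.01), with Id4 at 2.50 and 0.60. Between the late fractions the sign changed: for RS minus D, 5 of the 8 were above 0 in project 4 (median 0.11) and 3 of the 8 in project 6 (median -0.58), with Id4 below 0 in both. With the project as a fixed block in limma, the falls in lP and D against Sp ranged from 2.30 for Etv5 to 5.40 for Zbtb16, and all 9 genes were still called.

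The gate of the Sp fraction was read through 2 further lists. Of 26 other genes used as markers of undifferentiated spermatogonia, 11 reached a log2 value of 5 on every Sp array and 8 stayed under 5 on all of them. Under 5 throughout were Lhx1, Pou5f1, Shisa6, Pax7, Eomes, Utf1, Tspan8 and Epha2, several of which mark subsets at the top of the stem cell hierarchy. Neurog3, a factor of the committed progenitors, was 5.56, 2.44, 2.85 and 5.56 on the Sp arrays, and Thy1, a surface protein used to enrich stem cells, 3.05, 2.44, 5.34 and 6.04. Each crossed the limit on 2 arrays, and only Sp array 4 was among both pairs. Pou3f1, a POU factor downstream of GDNF, was 7.62 to 9.05, and Sox3, a factor of the progenitors, 9.50 to 11.24. These genes, like Kit, Stra8, Dmrt1, Gdnf and Tcf4 below, are named here after their values were seen.

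Of 19 genes of differentiating spermatogonia and meiotic entry, 16 reached 5 on every Sp array. Kit, the receptor of stem cell factor and the defining gene of differentiating cells, was 10.51, 10.62, 11.49 and 11.13 in Sp, and Stra8, the retinoic acid target, was 11.49, 10.88, 10.98 and 12.32. Dmrt1, which restrains meiotic entry, was 13.7 to 14.17. All 3 were far above 5 on each of the 4 arrays of the gate. Of the 19 genes, 17 also reached 5 on every pL array and 16 on every L/Z array. Of 17 tested, 0 were called by limma in pL or in L/Z against Sp. By these tests the list did not set the gate apart from the first meiotic fractions.

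Both lists were then followed through meiosis. Of the undifferentiated list 20 genes were tested, and 0 were called in pL or in L/Z against Sp. In mP against Sp 6 were lower, among them Cxcr4, a chemokine receptor (-2.06), Egr2 (-2.15) and Egr3 (-2.36), early response factors, and Plvap (-2.30), all called by limma. That share, 6 of 20, stands beside 22.9% of all genes lower. In the same comparison 8 of 10 tested macrophage genes were lower (median -4.28), and in lP and D against Sp 9 of 10 were, and their part in the fall of this list was not tested. In lP and D 13 of the 20 were lower and 1 higher (38.2% and 31.2% of all genes), with Egr2 at -4.42, Taf4b, a TFIID subunit of the germ line, at -4.29, Sox3 at -3.92 and Pou3f1 at -3.85. In RS 14 were lower and 1 higher (42.4% and 35.9% of all genes), and the RNA-binding Dazl had -6.08.

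Of the differentiating list 17 genes were tested. In mP against Sp 9 were lower (22.9% of all genes), among them the homeobox gene Rhox13 (-3.27), the cyclin gene Ccnd1 (-2.77) and Kit (-2.09, adjusted p = 0.00269 by limma). In lP and D 14 were lower and 1 higher (38.2% and 31.2% of all genes), with Kit at -5.49, Ccnd1 at -5.18 and the retinoic acid binding protein gene Crabp1 at -5.10. In mP against L/Z 8 of the 17 were lower, beside 3 of the 20 undifferentiated genes and 0 of the 9 members, where 17.1% of all genes were lower. A test of the difference between these lists was not run.

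**Figure D5:**
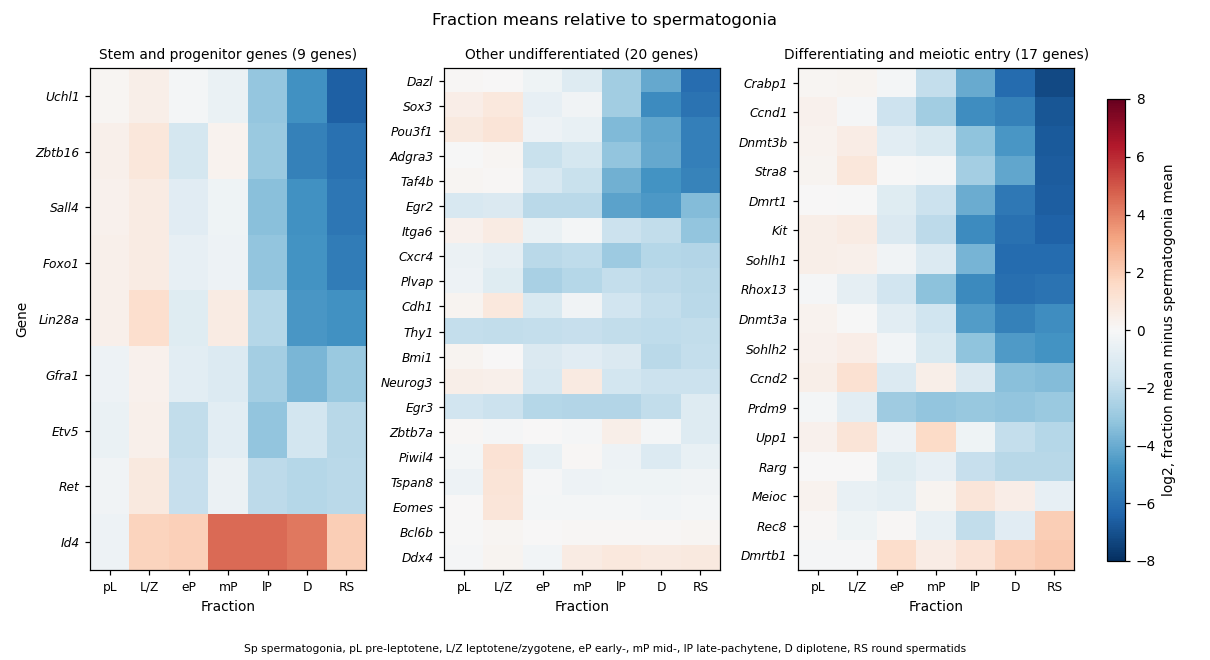
Heat map of the fraction mean minus the spermatogonia mean (log2) for the 9 genes, 20 other genes of undifferentiated spermatogonia and 17 genes of differentiating spermatogonia and meiotic entry, with fractions in stage order. Most rows of the 9 genes and of the differentiating genes are far below 0 in the late-pachytene and diplotene columns. Apart from Id4, every row of the 9 genes is already below 0 in early-pachytene, and 6 of the 9 are in mid-pachytene. Kit, Ccnd1 and Rhox13 are among 9 differentiating genes called lower in mid-pachytene, and Id4 turns positive.

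Genes that act with the members were read in the same way. Of 25 genes of GDNF family signalling 19 had a probe set and 15 were tested. In lP and D against Sp 5 were lower and 5 higher, near the shares of all genes (38.2% and 31.2%). The adaptor gene Grb2 (-4.14), the kinase gene Akt1 (-3.52) and the Src family gene Fyn (-3.49) were lower, while Gfra4, the co-receptor of persephin, was higher (3.52). In RS against Sp 6 were lower and 4 higher (42.4% and 35.9% of all genes). Grb2 had -5.63 and Fyn -4.55, while Gfra2, the co-receptor of neurturin, had 5.41 and the ligand gene Artn 5.08. Gfra2 was 9.55 to 10.03 on RS arrays, against 3.07 to 5.75 on Sp arrays, so the groups did not overlap. The ligand gene Gdnf itself, a Sertoli product, was near 2 on every array, between 2.09 and 2.23.

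Of 9 tested genes of the let-7 and LIN28 pathway, 5 were lower and 2 higher in lP and D against Sp, where 38.2% of all genes were lower and 31.2% higher. Mycn, a let-7 target and partner of MAX, had -5.19, Dicer1, the enzyme that cuts microRNA precursors, -4.63, Igf2bp1, an RNA-binding let-7 target, -4.59, and Trim71, an RNA-binding target of let-7, -2.96. Of 10 tested genes of FOXO and PI3K signalling, 7 were lower and 1 higher, against the same shares. Foxo3 had -2.85, Tsc2, an inhibitor of mTOR, -2.32 and the kinase gene Sgk1 -2.22.

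Most relatives and partners of Id4 and Etv5 were lower where Id4 was higher. Of 8 tested, 7 were lower and 1 higher in lP and D against Sp (38.2% and 31.2% of all genes), and the 1 higher was Tcf4, an E protein gene. Id2 fell by 3.57 on the log2 scale, and the E protein genes Tcf3 and Tcf12, whose products ID proteins bind, fell by 5.45 and 4.62. Dusp6, a phosphatase gene induced by ERK signalling, fell by 4.43. All of these were called by limma. In mP against Sp 4 were already lower and 1 higher (22.9% and 21.2% of all genes), with Id2 at -2.31, Tcf3 at -2.03, Dusp6 at -1.84 and Tcf12 at -1.77, beside 4.50 for Id4.

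Last, the genes whose pattern was most like that of each member were sought among 11943 genes by Pearson correlation over the 20 arrays. Id4 was most like Psma8 (r = 0.977), the proteasome subunit of the testis, Tacc1 (0.953) and Armt1 (0.953). Zbtb16 was most like Stk24 (0.990), Tbc1d2b (0.989) and Anp32e (0.988), and Sall4 like Anp32e (0.993), Stk24 (0.992) and Atic (0.992). Foxo1 was closest to Ndrg4 (0.996), Smagp (0.994) and Tspan14 (0.994), and Uchl1 to Scap (0.992), Llgl1 (0.991) and Hdac6 (0.990). For Lin28a they were Tns3 (0.981), Pip4k2b (0.979) and Pramel13 (0.978). For the receptor pair and Etv5 they were, for Gfra1, Fst (0.981), Foxc2 (0.968) and Abca1 (0.963), for Ret Parp9 (0.964), Cdh1 (0.961) and Osbpl3 (0.960), and for Etv5 Prr23a3 (0.934), Ugdh (0.932) and Slc7a2 (0.932). These values describe 20 points that share fractions and arrays.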

How the data were processed

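The values deposited by the authors were signal intensity on a linear scale, made by GCRMA (version not given in the sources used here) from Affymetrix MOE430 version 2 arrays of the 8 fractions. They were taken to log2. One linear model of the 8 fractions was fitted to the 20 arrays with limma 3.58.1 (R 4.3.3), which left 12 residual and gave 3.69 prior degrees of freedom. Tests were two-sided. A probe set entered when at least 2 arrays reached a log2 value of 5, which 22396 did, and p-values were adjusted over these by the Benjamini-Hochberg method (threshold 0.05). The lP fraction has 1 array, which the fit takes to vary like the others. The number of arrays limits the precision, and p-values measure the spread between pools of sorts. Fractions came from the labels, which number no replicate for eP and lP.

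Counts of genes use the probe set of highest mean per gene (11952 genes), with symbols updated through RefSeq of GRCm38.p6. The members and lists were chosen with earlier results of these data known. Named were all members, at most 4 genes per list and comparison with the largest change past the threshold, and the 3 genes most like each member. Other genes named are defining markers or were chosen after their values were seen. Lists covered spermatogonia, the pathways of the members, and Sertoli, Leydig, myoid, macrophage, endothelial, red blood, spermatid and pachytene cells. An array got its project number from the column of the study's dataset with the same signals (100% of 2157 probe sets).

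Alternatives were no filter, a floor at 5, quantile normalization, median centring, only the fractions compared, blocks by replicate number or project, array weights, the mean of a gene's probe sets, and each array left out. The random block by project, and the comparison of lP and D with mP, were added after seeing the data. The fit was tested on simulated data. Figures used Python 3.11.15, numpy 2.4.6, pandas 2.3.3 and matplotlib 3.10.9.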

Additional observations from a re-analysis of the deposited data

Results flagged for a closer look

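In 4 of the 32 groups of 4 arrays examined, 1 array stood apart from the others of its fraction, and in all 4 it was round spermatid array 1, the highest of its group. Its log2 signal was 5.60 for the main Zbtb16 probe set, 3.97 for Zbtb16 1419874_x_at, 4.39 for Sall4 1424153_s_at and 5.29 for Foxo1. Its gap to the next array took 0.906, 0.889, 0.973 and 0.971 of the range of the group, in that order, above the critical value of Dixon's test for 4 samples. Chance flags about 1 in 20 groups, and these probe sets share their arrays.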

How the results depend on the processing

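Over 27 pairs of a gene and a comparison that were called, 403 of 416 values under the alternatives kept direction and call, 13 lost the call and 0 reversed. Calls in lP and D against Sp and in RS against Sp stood at 9 genes, or 7 with the mean of the probe sets of a gene (7 genes tested), and those in pL against Sp at 0. In L/Z against Sp 1 gene (Id4) was called in place of 0 with array weights, project as a random block or the mean of the probe sets, and 0 to 1 with single arrays left out (1 without Sp array 4). In mP against Sp project as a fixed block gave 2 in place of 1. In mP against L/Z the count of 1 became 3 with a floor at 5 or with project as a fixed or random block, 2 with only the fractions compared or array weights, and 0 to 2 with single arrays left out. In RS against D it was 0 to 3 with single arrays left out, in place of 1. In lP and D against mP it was 0 in place of 6 with only the fractions compared and 3 to 6 with single arrays left out. The cause was not tested.

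Deviations from the fraction means correlated by a median of 0.335 between arrays of 1 replicate number, and by over 0.1 in 33 of 37 pairs, against 7 of 89 unrelated pairs (median -0.145). Since the lowest was -0.17, the numbers were not taken to pair the arrays. Arrays of 1 project correlated by over 0.1 in 21 of 21 pairs (median 0.439). With the replicate number as a block, 1 gene was called in L/Z against Sp, 3 in mP against L/Z and 2 in RS against D, and Uchl1 turned to -0.063 in pL against Sp and Ret to -0.26 in RS against D. This block was not run for comparisons with lP, whose array has no number.

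Reversals touched only changes that were not called. In pL against Sp they were Id4 (0.19, mean of probe sets) and Lin28a (-0.0099, fixed project block). In mP against Sp they were Lin28a (-0.83, fixed block) and Zbtb16 (-1.20 fixed block, -0.27 random block, -0.086 mean of probe sets). In RS against D they were Foxo1 (0.074), Gfra1 (0) and Zbtb16 (0.15) with the floor, Zbtb16 (0.21) and Lin28a (0.47) with the fixed block, and Lin28a (0.089) with the random block. In lP and D against mP it was Id4, with 0.090 after median centring, 0.35 and 0.15 with the fixed and random block, and 0.15 with the mean of probe sets. With single arrays left out, pL against Sp spanned 0 for Gfra1 (-0.74 to 0.15), Id4 (-0.73 to 0.049), Lin28a (-0.070 to 1.04), Ret (-0.79 to 0.25) and Zbtb16 (-0.048 to 0.92). So did mP against Sp for Ret (-1.10 to 0.21), Sall4 (-0.80 to 0.12) and Zbtb16 (-0.061 to 0.70), RS against D for Lin28a (-1.09 to 0.70) and Ret (-0.055 to 0.19), and lP and D against mP for Id4 (-0.65 to 0.41). Signals near a log2 value of 5 limit Gfra1, Ret and Etv5 throughout and most members after mP.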
